A study of Danio rerio with 23 samples.

Results

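Neurod1ΔUCE is a form of the zebrafish transcription factor Neurod1 that lacks the ultra-conserved element (UCE). The UCE is a short stretch in the centre of the evolutionarily conserved domain (ECD) of the Neurod proteins, and the ECD adjoins the basic helix-loop-helix (bHLH) domain. Of the 23 libraries of the series, 6 are compared here by their labels, 3 from endodermal cells that had received Neurod1ΔUCE and 3 from control endodermal cells. The Neurod1ΔUCE embryos carried *Tg(hsp70l:eGFP-2A-Neurod1ΔUCE)*, in which the heat shock promoter *hsp70l* drives a single transcript for eGFP and the deleted factor, together with *Tg(sox17:dsred)*, which labels the endoderm. The control embryos carried *Tg(sox17:dsred)* and no overexpression transgene. Both groups were wild type for the endogenous *neurod1* gene, received a heat shock at 38 hpf and another at 48 hpf, and were harvested at 52 hpf, when dsred+ cells were sorted from the dissected trunks of about 150 pooled embryos per sample. Libraries of the full-length factor (Neurod1, 4 libraries) and of the larger deletion (Neurod1ΔECD, 3 libraries), made in the same way from their own *hsp70l* lines, are used where the deleted form is set against them. A further 3 libraries, from *Tg(hsp70l:eGFP-2A-Ascl1a)* embryos with the same reporter, heat shocks and harvest, share the fit of 16 libraries. They are named only for their reads of the transgene feature. The *hsp70l* promoter acts in all cells of the embryo and not only in the endoderm, and each library is a pool of embryos. Nothing in the labels says that the pools of a group came from separate clutches, so the p-values measure only the spread between these samples.

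Neurod1 is a bHLH factor that dimerises with E proteins, binds E-box motifs and promotes the differentiation of neurons and of endocrine cells in the pancreas and the gut. The intestinal epithelium of the larva forms enteroendocrine cells, which release hormones, and goblet cells, which release mucus, and in mouse the bHLH factor Atoh1 starts the secretory lineage and the zinc finger repressor Gfi1 acts below it. In zebrafish the study assigns the start of the secretory lineage to Ascl1a. The comparison asks which endodermal genes respond to a Neurod1 that has kept its bHLH domain and its activation domains but lost the UCE.

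The deletion is carried by the primers that joined the parts of the construct, and they are shown because they define what the transgene lacks. The sense primer has an arm of 20 bases from the *neurod1* sequence before the deletion and an arm of 22 bases from the sequence after it, and 40 bases of it are shared with the reverse complement of the antisense primer. In the junction below, 15 bases before the deletion are in lower case and 15 bases after it are in capitals.
arm before the deletion: tgatgtcttttgtgcaggcc
arm after the deletion: AACCCCAGAACTTTTCTGCCCG
junction in the Neurod1ΔUCE construct: tcttttgtgcaggccAACCCCAGAACTTTT

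The libraries held 9503360, 16079588 and 11373952 counted reads for Neurod1ΔUCE and 11514570, 12110205 and 16144085 for the controls. Pearson's r of log2 CPM between 2 libraries of a group was 0.79 to 0.87 for Neurod1ΔUCE and 0.88 to 0.89 for the controls, so the Neurod1ΔUCE replicates were less alike. Over all genes library 2 was the least like the others, with r of 0.79 to library 1 and 0.83 to library 3 against 0.87 between libraries 1 and 3, and it had the widest spread of differences from the control mean (SD of 1.06 in log2(CPM + 1), against 0.79 in library 1 and 0.88 in library 3). The sorted cells had endodermal transcripts in every library: 25 of the 29 endodermal markers were above 3 counts in all Neurod1ΔUCE libraries and 28 of 29 in all control libraries. This measure does not single out the endoderm. In all Neurod1ΔUCE libraries it was also met by 9 of 9 blood, 7 of 7 endothelial, 25 of 26 mesenchyme and matrix and 20 of 24 muscle markers. Fewer neural (12 of 20) and hepatocyte (13 of 19) markers met it. The forkhead factor gene *foxa3* had 173, 308 and 280 CPM in the Neurod1ΔUCE libraries and 111, 295 and 320 CPM in the controls. The *sox17* gene itself was low, at 0.65, 0.76 and 0.27 CPM in the Neurod1ΔUCE libraries and 1.24, 1.80 and 0.53 CPM in the controls. Transcripts of other tissues varied between libraries within both groups. The summed level of 24 muscle markers was 415, 4724 and 185 CPM in the Neurod1ΔUCE libraries against 2094, 300.3 and 25943 CPM in the controls, and that of 26 mesenchyme and matrix genes was 5394, 662 and 136 CPM against 3796, 883 and 2014 CPM. In bulk samples such as these, fewer cells of a type and less RNA per cell cannot be told apart.

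Neurod1ΔUCE library 1 stood apart from libraries 2 and 3 in the transcripts of the transgene and of chaperones. The transgene was followed with a feature that the authors had built from the *neurod1* region used in the construct. It had 1191, 1.52 and 1.69 CPM (12796, 20 and 19 reads) in Neurod1ΔUCE libraries 1, 2 and 3, against 1.09, 0.27 and 0.12 CPM (15, 3 and 2 reads) in the controls. Library 1 therefore had 742 times the mean of libraries 2 and 3, while libraries 2 and 3 were above the highest control by only a few reads. The feature did not pass the threshold between the groups (log2 fold change 9.65 ± 2.21 (SE), edgeR FDR 0.19, and 1.70 with an edgeR FDR of 0.48 without library 1), so that a raised level of the transgene was seen in library 1 but not established for libraries 2 and 3. The Neurod1ΔECD libraries had 7.33, 3.95 and 5.95 CPM and the 4 Neurod1 libraries 19.0, 36.6, 53.9 and 20.1 CPM, so that library 1 was also 36.8 times the Neurod1 mean. This feature identifies the construct only in part, because the 3 Ascl1a libraries of the experiment, which carry no *neurod1* transgene, had 26.2, 177 and 21.8 CPM of it.

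The endogenous *neurod1* transcript, counted on its 3′ UTR, was also highest in library 1. It had 75.2, 9.13 and 7.37 CPM in the Neurod1ΔUCE libraries against 2.54, 0 and 4.24 CPM in the controls, with library 1 at 9.11 times the mean of libraries 2 and 3. The groups did not overlap, but the difference did not pass the threshold in edgeR (log2 fold change 3.73 ± 1.13 (SE), edgeR FDR 0.42), and without library 1 it was 1.84 (edgeR FDR 0.47). In DESeq2 the FDR was 0.035 with 3 libraries and 0.34 without library 1.

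The heat-inducible chaperone genes set library 1 apart as well. *hsp70l*, whose promoter drives the transgene, had 3922, 1.37 and 0.89 CPM in the Neurod1ΔUCE libraries and 2.83, 379 and 14.3 CPM in the controls. A second Hsp70 gene, *hsp70.3*, had 2283, 1.83 and 3.82 CPM in the Neurod1ΔUCE libraries and 9.88, 211 and 14.5 CPM in the controls. Their levels thus differed most within the groups, with library 1 highest of the 3 Neurod1ΔUCE libraries and control library 2 highest of the controls, and the groups overlapped. The cytosolic chaperone gene *hsp90aa1* had the same pattern, at 2900, 17.1 and 26.6 CPM in the Neurod1ΔUCE libraries and 84.9, 2024 and 146 CPM in the controls. The endoplasmic reticulum chaperone gene *hspa5* had 4928, 29.1 and 255 CPM in the Neurod1ΔUCE libraries and 712, 1117 and 307 CPM in the controls. The Neurod1 and Neurod1ΔECD libraries varied in the same genes, since *hsp70l* had 18.7, 0.94 and 1.75 CPM in the Neurod1ΔECD libraries and 17, 188, 692 and 53.6 CPM in the Neurod1 libraries. All 3 Neurod1ΔUCE libraries remained in the main comparison, and the called genes are also given without library 1.

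**Figure D1:**
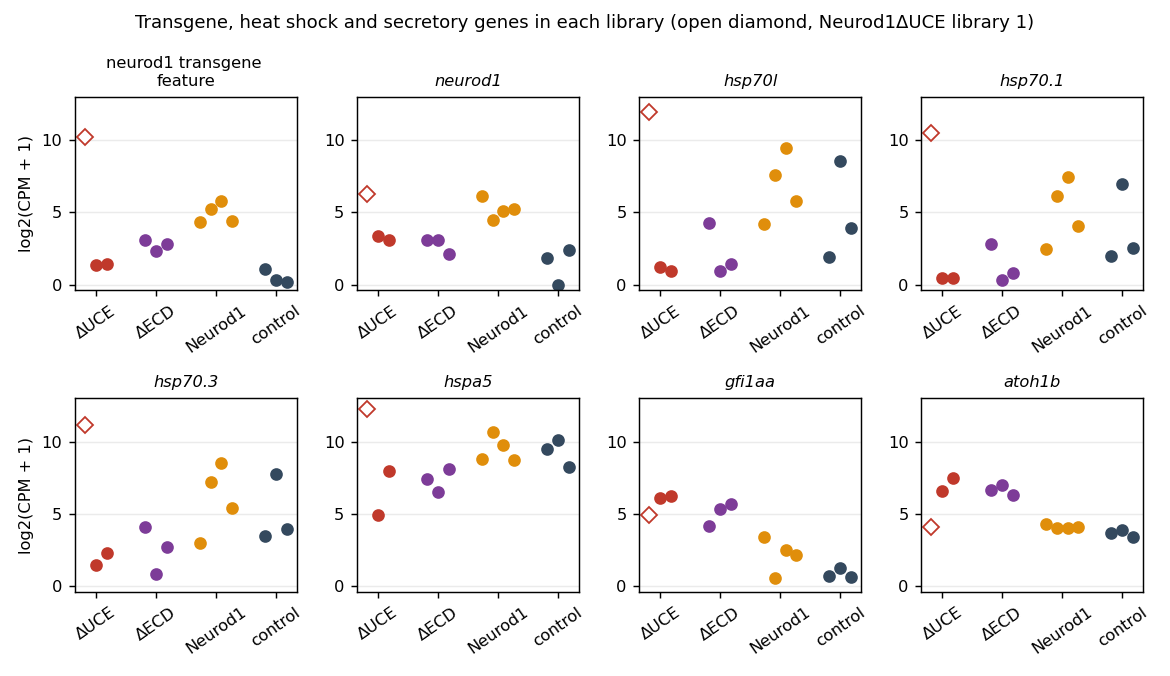
The transgene feature, endogenous *neurod1*, 4 chaperone genes, *gfi1aa* and *atoh1b* as log2(CPM + 1) in each library of Neurod1ΔUCE, Neurod1ΔECD, Neurod1 and control, with 1 point per library and an open diamond for Neurod1ΔUCE library 1. Library 1 is at the top of the transgene, *neurod1* and chaperone panels (1191 CPM of the transgene feature, 3922 CPM of *hsp70l*) and is the lowest of the Neurod1ΔUCE libraries for *gfi1aa* (29.6 CPM) and *atoh1b* (16.5 CPM).

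In the libraries labelled Neurod1ΔUCE, 11 genes were higher than in the controls and none lower, of 18911 genes tested at an FDR of 0.1 or less (edgeR quasi-likelihood test, 0.0582% of the genes tested). At an unadjusted p under 0.05, edgeR had 703 genes higher and 642 lower (3.72% and 3.39%). DESeq2 called 237 genes (0.835%) on the same libraries, 146 higher and 91 lower (0.515% and 0.321%), and limma voom with sample weights called 7 (0.037%), all of them higher. On simulated counts of this comparison 29.3% of the DESeq2 calls were genes that had not been changed, against 4.76% of the edgeR calls, at the same FDR of 0.1. The simulated counts were drawn a single time from edgeR's own estimates of the spread, with no library set apart as library 1 is. They therefore cannot say how many of the DESeq2 calls given here are wrong, and this was not tested. The libraries of the 2 groups did not overlap for all 11 genes, as was the case for 4.6% of the tested genes in the upward direction. They encode transcription factors, a keratin, an annexin, a brush border enzyme and secreted or metabolic proteins.

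The 11 genes include 2 transcription factors of secretory cells. *gfi1aa*, which encodes a zinc finger repressor whose mouse counterpart is needed for goblet cells, had 29.6, 67.7 and 75.9 CPM in the Neurod1ΔUCE libraries and 0.65, 1.44 and 0.59 CPM in the controls. Its lowest Neurod1ΔUCE value, in library 1, was far above every control. The means were 57.7 ± 24.7 and 0.89 ± 0.47 CPM (SD, n = 3 each), with a log2 fold change of 6.03 ± 0.90 (SE, edgeR FDR 0.025) that was 6.34 without library 1 (edgeR FDR 0.014). *pax4*, a paired homeodomain factor of endocrine progenitors, had 11.7, 6.09 and 28.5 CPM (126, 80 and 321 reads) in the Neurod1ΔUCE libraries and no read in any of the controls. Set against 3 reads per control library, its mean was at least 69.7-fold higher (edgeR FDR 0.03), and the call was kept without library 1 (edgeR FDR 0.033). Over 17 alternative settings, however, the call of *pax4* was lost in 7 and that of *gfi1aa* in 6. Both calls were lost with limma voom (FDR 0.46 for *pax4* and 0.12 for *gfi1aa*) and in edgeR whichever control library was left out.

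Structural and epithelial genes were also higher. *krt1-c5*, a type I keratin gene, had 33.6, 29.4 and 38.3 CPM in the Neurod1ΔUCE libraries and 2.76, 3.59 and 4.53 CPM in the controls. Library 1 lay between libraries 2 and 3. The difference was the most significant of the comparison (log2 fold change 3.21 ± 0.37 (SE), edgeR FDR 0.0034) and was 3.21 without library 1 as well. *anxa4*, which encodes the annexin that marks secretory cells of the zebrafish gut, had 826, 1302 and 2387 CPM in the Neurod1ΔUCE libraries against 285, 271 and 226 CPM in the controls (log2 fold change 2.53 ± 0.40 (SE), edgeR FDR 0.03). *anpepb*, the gene of the brush border enzyme aminopeptidase N, had 38.2, 184 and 79.2 CPM in the Neurod1ΔUCE libraries against 16.1, 10.3 and 5.48 CPM in the controls (log2 fold change 3.24 ± 0.54 (SE), edgeR FDR 0.043). For *anxa4* and *anpepb*, library 1 was the lowest of the Neurod1ΔUCE libraries but above all controls.

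*plxdc1*, a gene for a transmembrane protein with a plexin domain, had 17.3, 24.7 and 17.8 CPM in the Neurod1ΔUCE libraries and 0.94, 0 and 0.18 CPM (13, 0 and 3 reads) in the controls (log2 fold change 5.68 ± 0.92 (SE), edgeR FDR 0.034). *grn1*, one of the zebrafish granulin genes, which encode secreted growth factors, had 43.1, 89.4 and 62.4 CPM in the Neurod1ΔUCE libraries and 4.58, 8.80 and 8.42 CPM in the controls (log2 fold change 3.16 ± 0.49 (SE), edgeR FDR 0.03). For both genes library 1 had the lowest Neurod1ΔUCE value, which was several times that of any control. *bckdk*, which encodes the kinase that restrains the breakdown of branched-chain amino acids, had 235, 499 and 469.6 CPM in the Neurod1ΔUCE libraries and 74.3, 75.8 and 88.5 CPM in the controls (log2 fold change 2.33 ± 0.34 (SE), edgeR FDR 0.025). *selenop*, the gene of a secreted carrier of selenium, had 474, 369.8 and 534 CPM in the Neurod1ΔUCE libraries against 131, 129.6 and 130.2 CPM in the controls (log2 fold change 1.82 ± 0.33 (SE), edgeR FDR 0.086). Its control libraries were close to each other, with an SD of 0.49 CPM, and library 1 lay between libraries 2 and 3.

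The remaining 2 genes have no assigned function in the names used here. *si:ch73-330k17.3* (ENSDARG00000097169) had 40.4, 39.1 and 55.1 CPM in the Neurod1ΔUCE libraries and 5.81, 7.64 and 9.13 CPM in the controls (log2 fold change 2.57 ± 0.38 (SE), edgeR FDR 0.025). *si:dkeyp-46h3.2* (ENSDARG00000092498) had 1.95, 28 and 48.4 CPM in the Neurod1ΔUCE libraries and 1.31, 0.45 and 0.53 CPM in the controls (log2 fold change 5.08 ± 0.93 (SE), edgeR FDR 0.092). In this gene library 1 was close to the controls and the call rested on libraries 2 and 3, and without library 1 the log2 fold change was 5.63 (edgeR FDR 0.0034). *si:dkeyp-46h3.3* and *si:dkeyp-46h3.6*, which carry the same clone name, followed the same pattern but did not pass the threshold with 3 libraries (0.19, 8.45 and 16.9 CPM against 0.073, 0 and 0.24 CPM, and 0.28, 5.94 and 13.0 CPM against 0, 0 and 0.059 CPM). Whether reads can be shared between these genes was not tested.

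**Figure D2:**
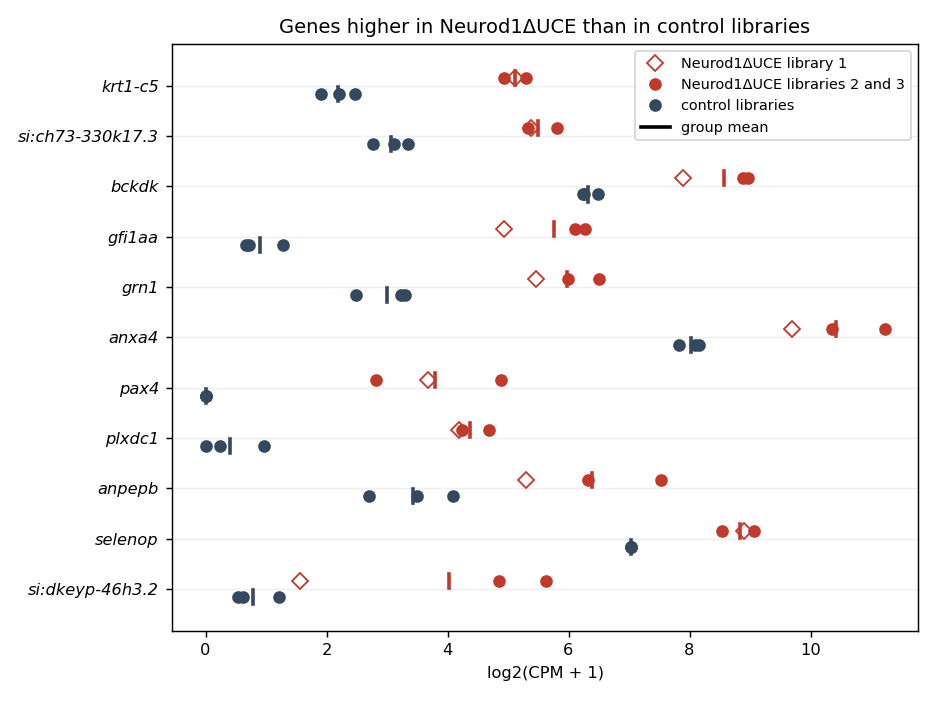
The 11 genes higher in Neurod1ΔUCE libraries at an edgeR FDR of 0.1 or less, ordered by p-value from the top, with log2(CPM + 1) on the horizontal axis. Each point is a library, vertical ticks are group means, and the open diamond is Neurod1ΔUCE library 1, which is above all controls for each gene but close to them for *si:dkeyp-46h3.2* (1.95 CPM against 0.45 to 1.31 CPM).

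Over the alternatives tried, the call of *krt1-c5* was lost only when the 6 libraries were fitted on their own, without the other 10 libraries that share the estimate of the spread. In that fit edgeR called none of the 11 genes, with 741 genes at an unadjusted p under 0.05, whereas DESeq2 on the same 6 libraries called 83 genes higher and 53 lower, with all 11 genes among them. Without control library 1, 2 or 3, edgeR called 3, 1 and 3 genes, of which 2, 1 and 1 were among the 11.

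Among genes that did not overlap between the groups but missed the threshold, the 10 with the smallest p in the upward direction include further secretory and endocrine genes. *atoh1b*, which encodes a zebrafish counterpart of the bHLH factor that starts the secretory lineage in mouse, had 16.5, 97.2 and 180.3 CPM in the Neurod1ΔUCE libraries and 12.1, 14.1 and 9.72 CPM in the controls. Library 1 was barely above the controls while libraries 2 and 3 were several times higher. The log2 fold change was 3.03 ± 0.60 (SE, edgeR FDR 0.13) with 3 libraries and 3.53 ± 0.40 (SE, edgeR FDR 0.0034) without library 1. *tm4sf4*, a gene for a membrane protein of the tetraspanin-like TM4SF family known from islet cells, had 319, 820 and 1163 CPM in the Neurod1ΔUCE libraries and 121, 148 and 139 CPM in the controls (edgeR FDR 0.11, and 0.014 without library 1, DESeq2 FDR 0.00015 with 3 libraries). *insm1b*, a zinc finger factor of endocrine differentiation, had 107, 133 and 86.9 CPM in the Neurod1ΔUCE libraries and 12.6, 19.7 and 21.0 CPM in the controls (log2 fold change 2.62 ± 0.55 (SE), edgeR FDR 0.16). In *insm1b* library 1 lay within the range of libraries 2 and 3.

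The other 7 genes of this group had an edgeR FDR of 0.13 to 0.16. *hepacam2*, a cell adhesion gene of the immunoglobulin family, had 30.2, 23.3 and 48.3 CPM in the Neurod1ΔUCE libraries against 0.94, 1.35 and 3.00 CPM in the controls. *mfsd4aa*, which encodes a transporter of the major facilitator family, had 37.5, 26.9 and 34.2 CPM against 3.56, 2.87 and 2.77 CPM. Both were as high in library 1 as in libraries 2 and 3. *tnfrsf11a*, the gene of the receptor RANK, had 176, 203 and 366 CPM against 88.8, 36.0 and 31.7 CPM, and *elovl1a*, a gene for elongation of long fatty acids, had 40.5, 67.8 and 45.7 CPM against 13.5, 13.4 and 16.4 CPM. *txnipa*, the gene of a thioredoxin-interacting protein, had 104, 112 and 76.5 CPM against 16.9, 33.7 and 36.0 CPM. In these 3 genes the lowest Neurod1ΔUCE value was above the highest control, as the choice of the genes requires, and library 1 was not set apart. *tdgf1*, which encodes a Nodal co-receptor, stayed low in both groups (5.58, 5.48 and 2.49 CPM against 1.02, 0.36 and 0.53 CPM). *sid1* had 21, 80 and 16 reads in the Neurod1ΔUCE libraries and none in the controls, at least 14.3-fold higher when the controls are set at 3 reads per library.

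In the downward direction, in which the libraries did not overlap for 5.44% of the tested genes, the 10 genes chosen by the same rule had an edgeR FDR between 0.13 and 0.19 and a log2 fold change between -1.17 and -6.89. A set of 3 metabolic genes, grouped after their values were seen, is given first. *oxct1a*, which encodes the enzyme that activates ketone bodies for use as fuel, had 4.56, 3.96 and 1.86 CPM in the Neurod1ΔUCE libraries and 12.9, 21.2 and 20.3 CPM in the controls. *ldha*, the gene of lactate dehydrogenase A, had 83.1, 81.7 and 59.8 CPM against 251, 217 and 338 CPM. *tkfc*, which encodes a kinase of fructose breakdown, had 23.0, 21.8 and 25.1 CPM against 47.9, 53.2 and 56.3 CPM. In each of the 3 genes the Neurod1ΔUCE libraries lay below every control, as the rule requires, and library 1 was in the range of libraries 2 and 3 or just above it.

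The other 7 genes include guidance, adhesion and regulatory genes. *ntn1a*, which encodes the guidance cue netrin, had 6.70, 4.11 and 1.86 CPM in the Neurod1ΔUCE libraries against 71.9, 21.5 and 16.9 CPM in the controls. *klf2b*, a Krüppel-like factor gene, had 64.0, 35.6 and 36.1 CPM against 138, 105 and 136 CPM. *adgrl2*, a latrophilin receptor gene, had 25.2, 14.6 and 28.1 CPM against 60.5, 59.9 and 61.2 CPM. For *klf2b* library 1 was the highest of the Neurod1ΔUCE libraries, though below every control as the rule requires. *dmrt2*, a DM-domain factor gene, was near zero in the Neurod1ΔUCE libraries (2, 1 and 0 reads) and had 160, 201 and 21 reads in the controls. *LRFN2* (ENSDARG00000106248), a gene for a synaptic adhesion protein, had 0, 1 and 0 reads against 46, 45 and 97 reads. *carmil2*, a regulator of actin capping, and *pmt*, a phosphoethanolamine methyltransferase gene, had log2 fold changes of -2.65 and -2.23. Without library 1, *oxct1a*, *ntn1a* and *klf2b* passed the threshold (edgeR FDR 0.087, 0.087 and 0.074).

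Lists of genes were read by their counts and by the median log2 fold change, which was 0.02 over all genes tested. At an unadjusted p under 0.05 by edgeR, 3.72% of all genes tested were higher and 3.39% lower. The counts of each list below are to be read beside these shares. The endocrine signature of the study holds 10 genes and was chosen by the study on libraries of this series, so its direction is not independent evidence. *pax4* was the only member called by edgeR, 9 of 10 were higher and none lower at an unadjusted p under 0.05, and the median was 2.60. DESeq2 called 7 of the 10 higher and none lower at an FDR of 0.1 or less. Of all genes DESeq2 tested, 0.515% were called higher and 0.321% lower. Relative to the control mean, the median difference in log2(CPM + 1) of the 10 genes was 2.32 in library 1, 2.00 in library 2 and 2.22 in library 3. The spread between libraries was wide for *rfx6*, a winged helix factor of endocrine cells, with 19.9, 0.99 and 4.71 CPM in the Neurod1ΔUCE libraries against 0.15, 0 and 0.77 CPM in the controls. For *sox4b*, an HMG-box factor gene, the values were 158, 90.4 and 181 CPM against 46.1, 32.5 and 23.1 CPM. *nkx2.2a*, a homeodomain factor gene, had 9.77, 5.33 and 11.1 CPM against 0.51, 0.27 and 3.47 CPM. Neither *rfx6*, *sox4b* nor *nkx2.2a* passed the threshold in edgeR, with an FDR of 0.42, 0.25 and 0.57.

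Of 21 tested genes for other endocrine transcription factors, none was called, 5 were higher and 1 lower at an unadjusted p under 0.05 by edgeR, and the median was 0.03. *fev*, an ETS factor gene of serotonergic and endocrine cells, had 4.19, 10.8 and 9.06 CPM in the Neurod1ΔUCE libraries and 0.44, 0.27 and 0.71 CPM in the controls (log2 fold change 4.04 ± 1.01 (SE), edgeR FDR 0.25). *tox3*, an HMG-box gene, had 87.6, 54.4 and 121 CPM against 30.9, 27.4 and 37.9 CPM (edgeR FDR 0.25), and *runx1t1*, a co-repressor gene, had 18.9, 17.1 and 40.2 CPM against 6.39, 8.98 and 14.5 CPM (edgeR FDR 0.67). The libraries of the 2 groups did not overlap for *fev*, *tox3* and *runx1t1*. The pancreatic factor gene *pdx1* lay below all controls (22.0, 35.1 and 10.8 CPM against 36.6, 52.3 and 41.2 CPM, edgeR FDR 0.74).

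The list of *gfi1* and *atoh1* genes had 3 tested members, with a median of 3.03, which is the log2 fold change of *atoh1b*. Relative to the control mean, the median difference in log2(CPM + 1) was 0.44 in library 1, 2.93 in library 2 and 3.82 in library 3. These medians are again the values of *atoh1b* alone, and *gfi1aa* was well above all controls in library 1 as well (29.6 CPM). The summed level of the 4 matched genes of this list was 46.2, 166 and 259 CPM in the Neurod1ΔUCE libraries and 12.9, 18.5 and 11.7 CPM in the controls. Of 10 tested goblet cell genes none was called, 1 was higher at an unadjusted p under 0.05 by edgeR (3.72% of all genes tested were), and the median was 0.16. *agr2*, a protein disulfide isomerase gene used as a goblet cell marker, had 124, 338 and 253 CPM in the Neurod1ΔUCE libraries and 112, 155 and 119 CPM in the controls, with library 1 inside the range of the controls (log2 fold change 0.89 ± 0.37 (SE), edgeR FDR 0.64).

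Hormone and granule genes were uneven among the Neurod1ΔUCE libraries. Of 20 hormone genes tested none was called by edgeR and 4 were higher at an unadjusted p under 0.05, with a median of 1.87 (1.32 without library 1). Relative to the control mean, however, the median difference in log2(CPM + 1) was only 0.40 in library 1, 1.14 in library 2 and -0.13 in library 3. The hormone list summed to 498, 1531 and 94.4 CPM in the Neurod1ΔUCE libraries against 25.5, 22.4 and 365 CPM in the controls. *ins* and the somatostatin gene *sst2* made up much of it, with 103, 624 and 47.9 CPM of *ins* against 5.01, 0 and 38.5 CPM, and 129, 357 and 2.04 CPM of *sst2* against 1.02, 4.22 and 100.1 CPM. Neurod1ΔUCE libraries 1 and 2 and control library 3 also had the highest summed level of 17 exocrine pancreas genes (25.8, 47.7 and 6.66 CPM in the Neurod1ΔUCE libraries and 4.07, 5.57 and 22.1 CPM in the controls), although pancreatic tissue was avoided at dissection. The part of pancreatic cells in the hormone values was not tested. *ghrl*, the ghrelin gene, had a different pattern, with 2.42, 15 and 15 CPM in the Neurod1ΔUCE libraries against 1.67, 2.43 and 0.82 CPM in the controls, and passed the threshold only without library 1 (edgeR FDR 0.36 with and 0.087 without it).

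Of 22 granule and secretion genes none was called, 6 were higher and 1 lower at an unadjusted p under 0.05 by edgeR, and the median was 0.66. *scg3*, a secretogranin gene, had 62.8, 107 and 34.3 CPM in the Neurod1ΔUCE libraries against 3.56, 1.71 and 15 CPM in the controls (edgeR FDR 0.20), and *rtn1a*, a reticulon gene of neuroendocrine cells, had 252, 857 and 184 CPM against 28, 15.5 and 109 CPM (edgeR FDR 0.16). Of 13 ion channel genes none was called by edgeR, and 5 were higher and none lower at an unadjusted p under 0.05, with a median of 0.84. *kcnn3*, a calcium-activated potassium channel gene, had 40.6, 14 and 66.9 CPM against 5.52, 3.14 and 5.59 CPM (edgeR FDR 0.18).

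Among Notch genes, which restrain the choice of the secretory fate in the gut, none was called by edgeR. The ligand genes *dlc* and *dll4* were above all controls, with 74.7, 59.4 and 57.3 CPM of *dlc* against 40.8, 28.3 and 29.7 CPM, and 31.1, 17.1 and 12 CPM of *dll4* against 1.67, 2.07 and 9.83 CPM (edgeR FDR 0.53 and 0.62). *dlb* overlapped between the groups, at 70.7, 12.4 and 46.3 CPM against 10.8, 10.1 and 49.2 CPM. The target gene *her6*, a Hes-type repressor, had 139, 179 and 449.7 CPM against 78.8, 78.2 and 52.4 CPM (edgeR FDR 0.46). Of 21 receptor and target genes 5 were higher and 1 lower at an unadjusted p under 0.05, with a median of 0.49. The retinoid list of 25 genes had 2 higher and 2 lower and a median of -0.25. Of all genes tested, 3.72% were higher and 3.39% lower by the same measure. The retinoic acid binding protein gene *crabp1b* had 65.3, 134 and 91.7 CPM against 63.0, 2.25 and 20.0 CPM (edgeR FDR 0.71).

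**Figure D3:**
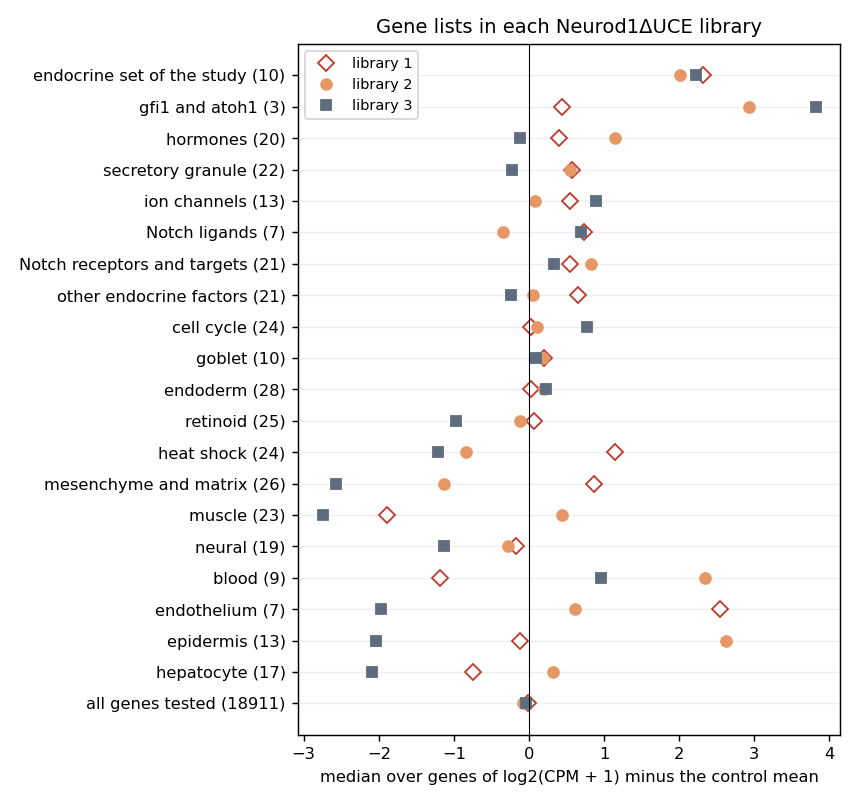
Median over the tested genes of each list (number in brackets) of log2(CPM + 1) in a Neurod1ΔUCE library minus the control mean, with an open diamond for library 1, a circle for library 2 and a square for library 3. The 3 libraries lie together for the endocrine set (2.32, 2.00 and 2.22) and apart for the *gfi1* and *atoh1* list (0.44, 2.93 and 3.82), where the median is the value of *atoh1b* alone.

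In edgeR, leaving out library 1 changed the number of calls far more than leaving out library 2 or 3. Without it, edgeR called 65 of 19514 genes tested (0.333%), 56 higher and 9 lower (0.287% and 0.0461%), and all 11 genes called with 3 libraries were among them. Without library 2 there were 9 calls and without library 3 there were 8, all higher. With DESeq2 the number was 994 without library 1 (3.52%), 454 higher and 540 lower (1.61% and 1.91%), against 237 with it, and with limma voom it was 14 (0.0717%) against 7. DESeq2 and limma voom were not run without library 2 or 3. Their rise therefore cannot be set against the loss of another library. Leaving a library out reduces the Neurod1ΔUCE group to 2 libraries.

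Library 1 often moved in the same direction as the other libraries in the 56 genes called higher without it, but less far. It lay above all controls for 40 of the 56, within their range for 11 and below it for 5, while 28.4% of all tested genes had library 1 above all controls. The median difference from the control mean in log2(CPM + 1) was 0.70 in library 1 and 2.18 in libraries 2 and 3, whose values were used to choose the genes. Of the 9 genes called lower, library 1 was below all controls for 4 (27.6% of all tested genes were) and within their range for 5, with a median difference of -0.28 against -2.17 in libraries 2 and 3. The same reading for the genes called without library 2 or without library 3 had the left-out library above all controls in 9 of 9 and 8 of 8 genes (31.5% of all tested genes were so in library 2 and 28.5% in library 3), with median differences of 2.73 and 3.04 in the left-out library. The same control values were also used to choose the genes in each case. The shares over all tested genes are therefore not a matched baseline for these counts. The 9 and the 8 genes were also all among the 11 called with 3 libraries, for each of which library 1 lay above all controls too. The 56 genes include those 11, which were also called with library 1 in the test, so the 40 of 56 is not fully independent of library 1. Most of the 56 genes were not among those 11, so the counts for the left-out libraries come from unlike sets of genes.

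**Figure D4:**
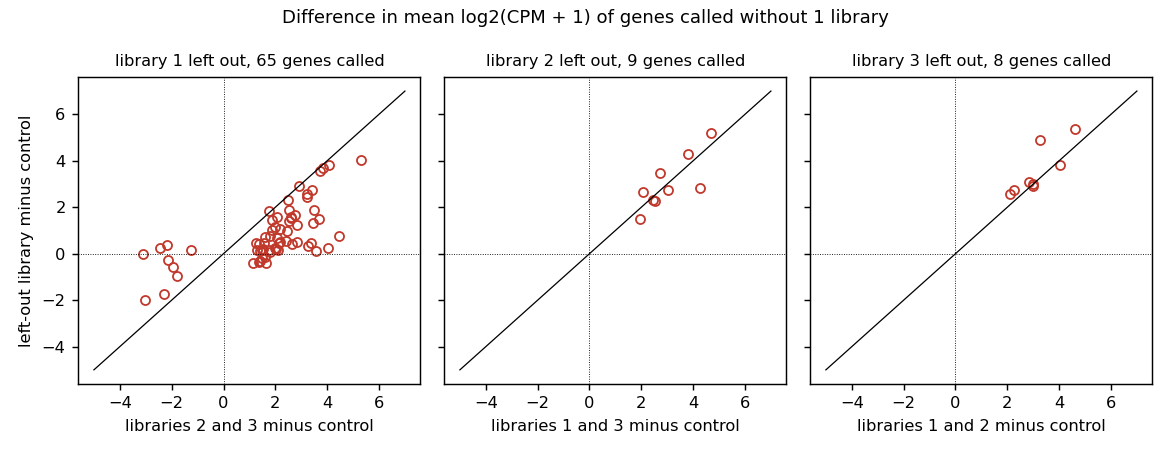
For the genes called by edgeR when Neurod1ΔUCE library 1, 2 or 3 is left out (65, 9 and 8 genes), the difference from the control mean in log2(CPM + 1) in the left-out library (vertical) is plotted against that in the other 2 libraries (horizontal), with the line of equality. Points fall near the line when library 2 or 3 is left out and mostly between it and 0 when library 1 is left out, where the medians are 0.70 and 2.18 for the 56 higher genes. The 9 and 8 genes are all among the 11 called with 3 libraries, and most of the 65 are not.

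Among the genes called only without library 1 are 7 genes of cell division, grouped after their values were seen (*ube2c*, *ube2s*, *e2f7*, *cdc25b*, *RRM2*, *pttg1* and *mis18a*). Library 1 was above all controls for 4 of them. Libraries 2 and 3 were above all controls for all 7, but the genes were called on these 2 libraries, so that count is no separate result. *cdc25b*, the phosphatase gene that activates Cdk1 at entry into mitosis, had 155, 522 and 326 CPM in the Neurod1ΔUCE libraries against 92.8, 90.7 and 109 CPM in the controls. *RRM2* (ENSDARG00000020711), a ribonucleotide reductase subunit gene, had 59, 279 and 196.9 CPM against 58.4, 48.4 and 54.2 CPM. Their log2 fold changes as a group were 1.15 to 1.78 with 3 libraries (edgeR FDR 0.22 to 0.57) and 1.49 to 2.15 without library 1 (edgeR FDR 0.049 to 0.087). In the wider list of 24 cell cycle genes, none was called, 2 were higher at an unadjusted p under 0.05 with 3 libraries and 10 without library 1, where 6.29% of all genes tested were. Libraries 2 and 3 differed in this list, with 11 genes above and 10 below all controls in library 2 and 18 above and none below in library 3. The summed level was 4333, 4288 and 7197 CPM in the Neurod1ΔUCE libraries and 4401, 4331 and 3843 CPM in the controls, so that only library 3 was above the control range.

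A second group, also formed after the values were seen, holds 3 genes for transport of amino acids and nucleosides. *slc3a2a*, the heavy chain of amino acid exchangers, had 66.3, 236 and 260.0 CPM in the Neurod1ΔUCE libraries against 35, 46.3 and 58.4 CPM in the controls, and *slc7a8*, a light chain, had 93.2, 236 and 384 CPM against 86.7, 62.1 and 53.3 CPM. In both genes library 1 was near the highest control. *slc29a2*, an equilibrative nucleoside transporter gene, had 34.9, 144 and 114 CPM against 40.8, 27.3 and 25.4 CPM, with library 1 inside the control range. *grasp*, a gene for a scaffold protein of membrane trafficking, also passed only without library 1 (66.2, 380.3 and 311 CPM against 51.4, 59.6 and 33.2 CPM, edgeR FDR 0.19 with it and 0.015 without it).

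For the genes called lower without library 1, library 1 was not always low itself. *VDR* (ENSDARG00000070721), a vitamin D receptor gene, had 109, 10.4 and 29.9 CPM in the Neurod1ΔUCE libraries and 64.1, 109.8 and 83.2 CPM in the controls. *oc90*, which encodes an otoconial protein, had 51.9, 5.94 and 8.79 CPM against 36.6, 57.0 and 40.8 CPM. Here library 1 differed from libraries 2 and 3, lying within the control range, and the 3-library log2 fold changes of -0.79 and -1.01 became -2.09 and -2.60 without it (edgeR FDR 0.087 for both).

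Genes called by edgeR, DESeq2 or limma voom, with or without library 1, were ranked by how far leaving it out moved their fold change. Those that moved most were the heat shock genes *hsp70.1*, *hsp70l* and *hspa2* and the mesenchymal genes *foxd1*, *ccn2b* and *thbs2b*. *hsp70.1* had 1453, 0.38 and 0.36 CPM in the Neurod1ΔUCE libraries and 2.98, 122 and 4.89 CPM in the controls, and *foxd1*, a forkhead factor gene, had 23.6, 0 and 0 CPM against 2.62, 0.45 and 7.01 CPM. All 6 had higher fitted values in Neurod1ΔUCE with 3 libraries and lower ones without library 1, and none passed the threshold in edgeR in either case. The 24 tested heat shock genes had a median of 0.54 with 3 libraries and -1.11 without library 1. The 26 mesenchyme and matrix genes had a median of -0.38 with 3 libraries and -2.18 without library 1, where 13 were lower and none higher at an unadjusted p under 0.05, as against 6.2% of all genes tested that were lower. *col1a1a*, a collagen gene, had 2542, 220.0 and 59.0 CPM in the Neurod1ΔUCE libraries and 1592, 196 and 735 CPM in the controls, so that library 1 had the highest level of all 6 libraries. Endothelial markers were highest in library 1 as well, with all 7 tested genes above all controls in library 1 and all 7 below them in library 3, and a summed level of 393, 167 and 26.1 CPM in the Neurod1ΔUCE libraries against 77.4, 112 and 110.1 CPM in the controls. Of all 18911 genes tested, 5371 lay above all controls in library 1 and 5404 below them in library 3. The part of mesenchymal and endothelial cells in the values of library 1 was not tested.

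**Figure D5:**
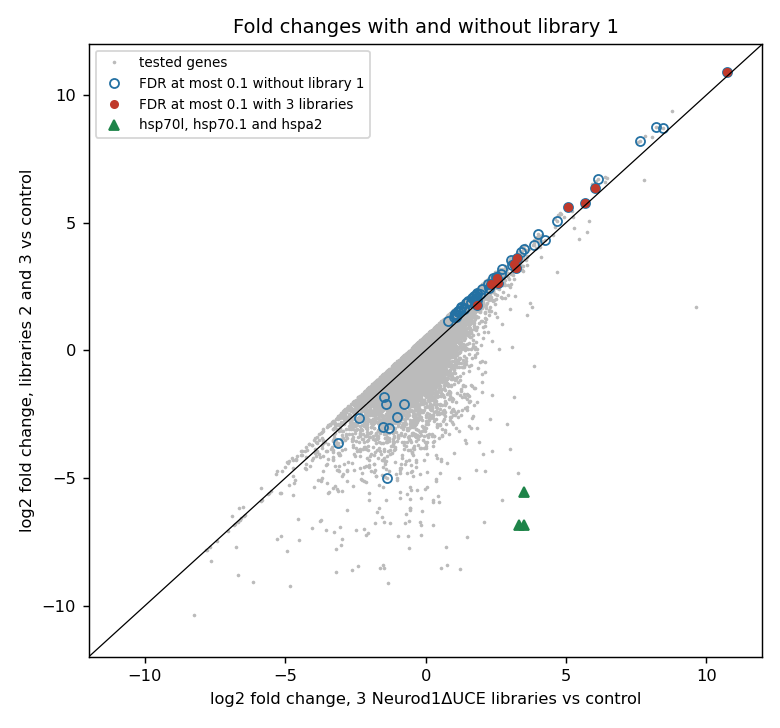
Log2 fold change of Neurod1ΔUCE over control for each tested gene (grey), with 3 Neurod1ΔUCE libraries on the horizontal axis and without library 1 on the vertical axis. Red points are the 11 genes called with 3 libraries and blue rings the genes called without library 1, and most of them lie near the diagonal line of equality, whereas *hsp70l*, *hsp70.1* and *hspa2* (green triangles) change sign, with values of 3.31, 3.49 and 3.51 when library 1 is included and -6.85, -6.83 and -5.54 when it is left out.

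Set against the other forms of the factor, which share the same controls and the same fit, Neurod1ΔUCE had no gene past the threshold in edgeR. Against Neurod1 there were 495 genes (2.62%) at an unadjusted p under 0.05, and DESeq2 called 17 (10 higher and 7 lower). Against Neurod1ΔECD there were 597 genes (3.16%) at an unadjusted p under 0.05, and DESeq2 called 1, *LRFN2*, at 0, 0.076 and 0 CPM in the Neurod1ΔUCE libraries and 1.93, 6.6 and 9.0 CPM in the Neurod1ΔECD libraries. Of the 11 genes called against control, 9 were above all controls in every Neurod1 library and 11 in every Neurod1ΔECD library. The Neurod1ΔUCE mean was above the Neurod1 mean for 9 of the 11 and above the Neurod1ΔECD mean for 7. The same controls were used to choose the genes. *krt1-c5*, for example, had 33.6, 29.4 and 38.3 CPM in the Neurod1ΔUCE libraries, 20.3, 29.8 and 36.8 CPM in the Neurod1ΔECD libraries and 17.6, 17.6, 13.6 and 23.6 CPM in the Neurod1 libraries. The Neurod1ΔUCE values were above all Neurod1 values, and overlapped those of Neurod1ΔECD (edgeR FDR 1 for each difference).

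*gfi1aa* had 29.6, 67.7 and 75.9 CPM in the Neurod1ΔUCE libraries, 17.0, 38.7 and 51.8 CPM in the Neurod1ΔECD libraries and 9.66, 0.50, 4.75 and 3.48 CPM in the Neurod1 libraries. All libraries of both deleted forms were above all Neurod1 libraries, although the difference between Neurod1ΔUCE and Neurod1 did not pass the threshold (log2 fold change 3.65 ± 0.70 (SE), edgeR FDR 0.53, DESeq2 FDR 0.001). For *atoh1b* the Neurod1ΔECD libraries had 98, 129 and 77.0 CPM and the Neurod1 libraries 18.4, 15, 15.4 and 16.5 CPM. Neurod1ΔUCE libraries 2 and 3 (97.2 and 180.3 CPM) were thus near Neurod1ΔECD, and library 1 (16.5 CPM) was within the Neurod1 range. Without library 1, 5 genes passed the threshold against Neurod1 in edgeR (0.0256% of the genes tested). They were *atoh1b* (log2 fold change 3.08 ± 0.35 (SE), edgeR FDR 0.0068), *si:dkeyp-46h3.2*, *si:dkeyp-46h3.3* and *si:dkeyp-46h3.6*, which were higher, and *vcana*, a matrix proteoglycan gene, which was lower.

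*mfsd4aa* did not overlap between Neurod1ΔUCE and Neurod1, at 37.5, 26.9 and 34.2 CPM in the Neurod1ΔUCE libraries, 24.8, 13.0 and 32.4 CPM in the Neurod1ΔECD libraries and 4.83, 4.50, 9.81 and 3.18 CPM in the Neurod1 libraries. Library 1 was the highest of the Neurod1ΔUCE libraries. *mfsd4aa* was the only gene that limma voom called against Neurod1 (FDR 0.08), it was called by DESeq2 as well (FDR 0.033), and in edgeR its log2 fold change was 2.56 ± 0.60 (SE, unadjusted p 0.00065, FDR 1). A pair of endocrine genes had lower means in Neurod1ΔUCE than in Neurod1. *nkx2.2a* had 9.77, 5.33 and 11.1 CPM in the Neurod1ΔUCE libraries and 74.5, 15, 11.9 and 41.2 CPM in the Neurod1 libraries, and *insm1a* had 62.6, 25 and 52.3 CPM against 186, 49.9, 82.5 and 127 CPM (edgeR log2 fold change -2.03 and -1.26, unadjusted p 0.039 and 0.024, FDR 1 for both). For *pax4* the Neurod1ΔUCE libraries had 11.7, 6.09 and 28.5 CPM and the Neurod1 libraries 96.4, 11.2, 15.6 and 38.1 CPM, which overlap.

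The study derived a list of 28 genes that separate both deleted forms from Neurod1, on these libraries, so its counts are a description. Of its 27 tested members, 2 were called higher against control by edgeR (*gfi1aa* and *si:dkeyp-46h3.2*), 12 were higher and 3 lower at an unadjusted p under 0.05, and the median was 0.84. *evi5a*, a gene for a Rab GTPase-activating protein, had 25.7, 31.1 and 57.5 CPM in the Neurod1ΔUCE libraries, 24.6, 13.4 and 35.2 CPM in the Neurod1ΔECD libraries, 7.2, 7.83, 4.13 and 8.10 CPM in the Neurod1 libraries and 12.2, 8.09 and 8.66 CPM in the controls. In *evi5a*, as in *gfi1aa* and *mfsd4aa*, library 1 was above all controls and above all Neurod1 libraries. Over the 27 members, the median difference from the control mean in log2(CPM + 1) was 0.18, 1.05 and 1.22 in libraries 1, 2 and 3. Libraries 1, 2 and 3 lay above all controls for 11, 16 and 16 members and below all controls for 4, 6 and 5. Of all genes tested, 28.4%, 31.5% and 28.5% lay above all controls in these libraries.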

How the data were processed

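Endodermal cells were profiled by Smart-seq2 with Nextera-XT libraries (13 PCR cycles, 75-base single-end reads, HiSeq). The authors trimmed the reads, mapped them to GRCz11 with STAR 2.5.4b and deposited raw gene counts from its GeneCounts module, per the submitters' processing notes and the study's methods. The trimming tool and the strand column are not given in the sources used here, so overlapping and antisense genes are uncertain. The authors added an in silico feature for the *neurod1* transgene and left out reads shared with endogenous *neurod1*, which is then counted on its 3′ UTR only.

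CPM are counts scaled to the TMM-normalized library size. The main test was edgeR 4.0.16 (quasi-likelihood, TMM, filterByExpr, R 4.3.3) with all 16 libraries of 52 hpf endodermal cells in 1 fit, Benjamini-Hochberg FDR of 0.1 or less over 18911 genes, with a log2 fold change of Neurod1ΔUCE over control. Differences per library used log2(CPM + 1). DESeq2 1.42.0 and limma 3.58.1 (voom with sample weights) were alternatives, with RLE scaling, no low-count filter, library sizes without the transgene features, an FDR of 0.05, a replicate block, the compared groups only, and each library left out. Of 31902 features, 29192 had a name. On simulated counts of this comparison edgeR recovered 36% of 4-fold and 84% of 16-fold changes over 18911 genes, with 4.76% of calls unchanged, and DESeq2 recovered 54% and 91%, with 29.3% of calls unchanged. Same-numbered Neurod1ΔUCE and Neurod1ΔECD libraries deviated together (r of 0.27, 0.48 and 0.28), while those with different numbers had r of -0.44 to 0.24. No batch is stated, and these few correlations do not establish a pairing. The main test used no pairing, and the replicate block was an alternative only. In the text are named all genes called, the 10 with the smallest p in each direction among those that did not overlap, list members, genes the study names for this experiment, and, among genes called by any tool, those moved most by leaving out library 1. Members and gene lists were chosen with earlier results of these data known. Lists taken from the study were chosen by it on these samples. Promoter motifs were not analysed here. Libraries of the sorted larval cells were not used here.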

Additional observations from a re-analysis of the deposited data

How the results depend on the processing

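For Neurod1ΔUCE against control, the 11 calls (11 higher, 0 lower) were 11 with RLE scaling and with library sizes that leave out the transgene features, 9 at an FDR of 0.05, 20 (20 higher) with no filter on low counts, 7 (7 higher) with limma voom, and 0 (0 higher) by edgeR on the 6 libraries alone. DESeq2 gave 237 (146 higher, 91 lower) on 16 libraries and 136 (83 higher, 53 lower) on the compared groups. Chosen after seeing the data, DESeq2 without Neurod1ΔUCE library 1 gave 994 (454 higher, 540 lower) and limma voom without it 14, with all genes shifted by a median of -0.117. Leaving out 1 library at a time gave 1 to 65 calls in edgeR (1 to 56 higher, 0 to 9 lower): 65, 9 and 8 without Neurod1ΔUCE library 1, 2 and 3, and 3, 1 and 3 without control library 1, 2 and 3. The cause was not tested. Over 187 alternative values, the 11 called genes kept their direction, with the call kept in 125 and lost in 62.

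Against Neurod1, edgeR gave 0 calls, DESeq2 17 (10 higher, 7 lower), DESeq2 on the compared groups 47 (17 higher, 30 lower) and limma voom 1 (1 higher), and leaving out 1 library gave 0 to 5 (0 to 4 higher, 0 to 1 lower), the 5 without Neurod1ΔUCE library 1. Against Neurod1ΔECD, DESeq2 gave 1 (1 lower), DESeq2 on the compared groups 11 (2 higher, 9 lower), and edgeR 0 whichever library was left out.

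The replicate numbers do not pair Neurod1ΔUCE with control, where same-numbered libraries had deviations correlated with r of 0.20, 0.07 and -0.39. With the replicate block, edgeR called 5 (5 higher). Against Neurod1ΔECD, where same-numbered libraries deviated together, the replicate block over all 16 libraries left 0 calls in edgeR, with 539 genes at an unadjusted p under 0.05 against 597 without it.

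The fitted log2 fold changes given here turned sign between settings, in some genes also with library 1 kept. Where libraries 2 and 3 are at 0, the part of the prior count in the fitted values was not tested. Without library 1, edgeR, DESeq2 and limma voom gave -6.85, -6.82 and -3.90 for *hsp70l*, -6.83, -6.83 and -4.37 for *hsp70.1*, -5.54, -5.52 and -4.16 for *hspa2*, -8.56, -7.80 and -6.07 for *foxd1*, -8.40, -7.64 and -6.10 for *ccn2b*, -8.54, -7.78 and -4.98 for *thbs2b* and -0.43, -0.42 and -0.36 for *greb1l*. With all libraries, limma voom, which weighs Neurod1ΔUCE libraries 1, 2 and 3 at 0.49, 0.32 and 1.21, gave -1.31 for *hsp70l*, -1.63 for *hsp70.1*, -1.10 for *hspa2*, -3.85 for *foxd1*, -4.02 for *ccn2b* and -2.91 for *thbs2b*. Leaving out 1 library at a time in edgeR, the values ran up to 7.24 for *hsp70l*, 6.93 for *hsp70.1*, 6.05 for *hspa2*, 2.34 for *foxd1*, 1.37 for *ccn2b*, 2.5 for *thbs2b* and 0.93 for *greb1l*. The replicate block gave -0.53 for *foxd1*, -1.39 for *ccn2b* and -0.35 for *thbs2b*, and leaving out control library 2 gave -0.02 for *thbs2b*. Depth was 9503360 to 16144085 reads per library, and with 3 libraries per group and a spread of about 0.6 (biological coefficient of variation) a difference that missed the threshold is not shown to be absent.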

Other observations

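Among the genes that DESeq2 called between Neurod1ΔUCE and Neurod1, 3 are described here with their control values. *cacna1ba*, a neuronal calcium channel gene, had 21.6, 1.22 and 55.8 CPM in the Neurod1ΔUCE libraries, 2.68, 1.00, 2.22 and 0.96 CPM in the Neurod1 libraries and 14.3, 17.9 and 11.7 CPM in the controls (DESeq2 FDR 0.012 against Neurod1). Its Neurod1ΔUCE libraries spanned the control range, with library 2 among the Neurod1 values. *plcxd3*, a phospholipase C-like gene, had 0.37, 0.076 and 0 CPM in the Neurod1ΔUCE libraries, 16.1, 5.08, 5.92 and 20.6 CPM in the Neurod1 libraries and 0, 0 and 0.77 CPM in the controls (DESeq2 FDR 0.0086 against Neurod1), so that it was high in Neurod1 libraries only among these groups. *faub*, a gene for a ubiquitin-like ribosomal protein, had 27.4, 52.7 and 59.4 CPM in the Neurod1ΔUCE libraries, 14.3, 18, 17.8 and 12.2 CPM in the Neurod1 libraries and 21.1, 20.8 and 13.6 CPM in the controls (DESeq2 FDR 0.079 against Neurod1), and all Neurod1ΔUCE libraries were above the Neurod1 and control libraries. The Neurod1ΔECD libraries had 19.6, 27.9 and 15.3 CPM of *faub*, which overlap the Neurod1ΔUCE values. They had 11.1, 4.30 and 32.3 CPM of *cacna1ba* and 0.76, 0 and 0.38 CPM of *plcxd3*. These genes were chosen after their values were seen, and edgeR called none of them.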
